A study of Mus musculus with 8 samples.

Results

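Conventional CD4+ T cells with much P2X7 on their surface were compared with cells of the same libraries with little of it. P2X7 was counted by CITE-seq, in which DNA-tagged antibodies are read beside the RNA of each cell, so that protein and transcripts come from the same droplets. In each library a barcode's value was its P2X7R antibody count divided by its RNA UMIs (unique molecular identifiers, 1 per captured RNA molecule). Barcodes at or above the library's 75th percentile are called P2X7-high and those at or below the 25th percentile P2X7-low. The rule gave 5302 P2X7-high and 5303 P2X7-low cells, 10605 of the 21551 barcodes kept over the whole series. The cells were chosen by the P2X7R count and the RNA total, so both are given as a description only. The RNA of the cells was not used in the choice beyond its total.

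The cells came from Foxp3-Cre-YFP reporter mice, whose regulatory T cells are marked by YFP, in which immunization had set off EAE (experimental autoimmune encephalomyelitis), used as a model of multiple sclerosis. Cells carrying CD44 and TCRβ and lacking Foxp3-YFP and CD11b were sorted from brain freed of meninges and from spinal cord. The cells of brain and spinal cord taken 14 days after immunization and of spinal cord taken at 50 days were used, below day 14 brain, day 14 cord and day 50 cord, each a single RNA library with its antibody counts. All mice were immunized, no library of healthy tissue was analysed here, and the labels do not give the number of mice or their age. Each split held 2579 high and 2579 low cells in day 14 brain, 2318 and 2318 in day 14 cord, and 405 and 406 in day 50 cord. Of the kept barcodes, 33 sequences were shared between the day 14 libraries, 4 between the spinal cord libraries and 2 between day 14 brain and day 50 cord. The sorted identity held in both groups: summed transcripts of 6 T cell markers lay between 5680 and 6449 CPM (the group's UMIs scaled to a fixed total), while Foxp3, the regulatory T cell factor, had at most 1 UMI in any of the 6 groups.

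P2X7, encoded by P2rx7, is a channel that opens when ATP leaks from damaged or activated cells, and strong stimulation leads to shedding of surface proteins and cell death. On mouse T cells it can also be gated by NAD, because the ecto-enzyme ARTC2.2, encoded by Art2b, transfers ADP-ribose from NAD onto it. P2X7 is abundant on tissue-resident memory T cells and T follicular helper cells, and retinoic acid is known to raise it.

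The start sites of 2 genes frame the comparison, since P2rx7 encodes the protein that split the cells and Gzmb, which encodes the killing protease granzyme B, was the lower gene of largest fold among those named below. Both are shown from 250 bases before to 50 bases after the RefSeq start (GRCm38.p6), 5′ to 3′ on the gene's strand, with the AP-1 motif TGANTCA in capitals. The P2rx7 window is chr5:122643677-122643976 on the plus strand and the Gzmb window is chr14:56262285-56262584 on the minus strand.
P2rx7: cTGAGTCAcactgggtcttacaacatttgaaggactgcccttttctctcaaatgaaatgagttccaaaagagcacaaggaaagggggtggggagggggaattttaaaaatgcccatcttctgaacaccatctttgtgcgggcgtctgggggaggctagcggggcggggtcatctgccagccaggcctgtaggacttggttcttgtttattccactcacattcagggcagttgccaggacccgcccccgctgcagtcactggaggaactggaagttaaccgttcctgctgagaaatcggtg
Gzmb: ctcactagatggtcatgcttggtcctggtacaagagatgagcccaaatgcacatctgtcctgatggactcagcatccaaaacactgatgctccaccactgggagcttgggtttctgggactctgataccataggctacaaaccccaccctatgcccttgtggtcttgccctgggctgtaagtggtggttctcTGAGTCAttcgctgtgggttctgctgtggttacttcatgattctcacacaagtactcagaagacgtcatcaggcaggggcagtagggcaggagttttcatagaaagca
The motif, the binding sequence of Jun and Fos proteins, begins 249 bases before the start of P2rx7 and 58 bases before that of Gzmb. On either strand it was found in 7.93% of 27025 promoters of this length, in 4.56% of the 8551 that belong to tested genes, in 8.0% of 100 promoters of genes called higher and in 6.93% of 101 of genes called lower. The nuclear receptor half-site AGGTCA was in 11.9%, 14.0% and 7.92% of the promoters of tested, higher and lower genes, and the T-box half-site AGGTGT in 10.4%, 13.0% and 13.9%. These windows and motifs were chosen after the values were seen, and a match describes letters only.

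Surface P2X7 spread widely among cells. The antibody is taken by its identifier, P2X7R, which the files pair with the name of another protein. The median P2X7-high cell carried 14 P2X7R counts against 2 in the low group in day 14 brain, 36 against 2 in day 14 cord, and 22 against 1 in day 50 cord. The upper threshold was 2.43 counts per 1000 RNA UMIs in day 14 brain, 4.27 in day 14 cord and 4.04 in day 50 cord, and the lower one 0.639, 0.825 and 0.599. Cells on either side of a threshold were nearly alike: in day 14 cord the last cell inside the high group had 4.268 and the first outside it 4.266 counts per 1000 UMIs. P2X7R had a count of 0 on 349, 165 and 155 of the low cells in the same order of libraries.

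**Figure D1:**
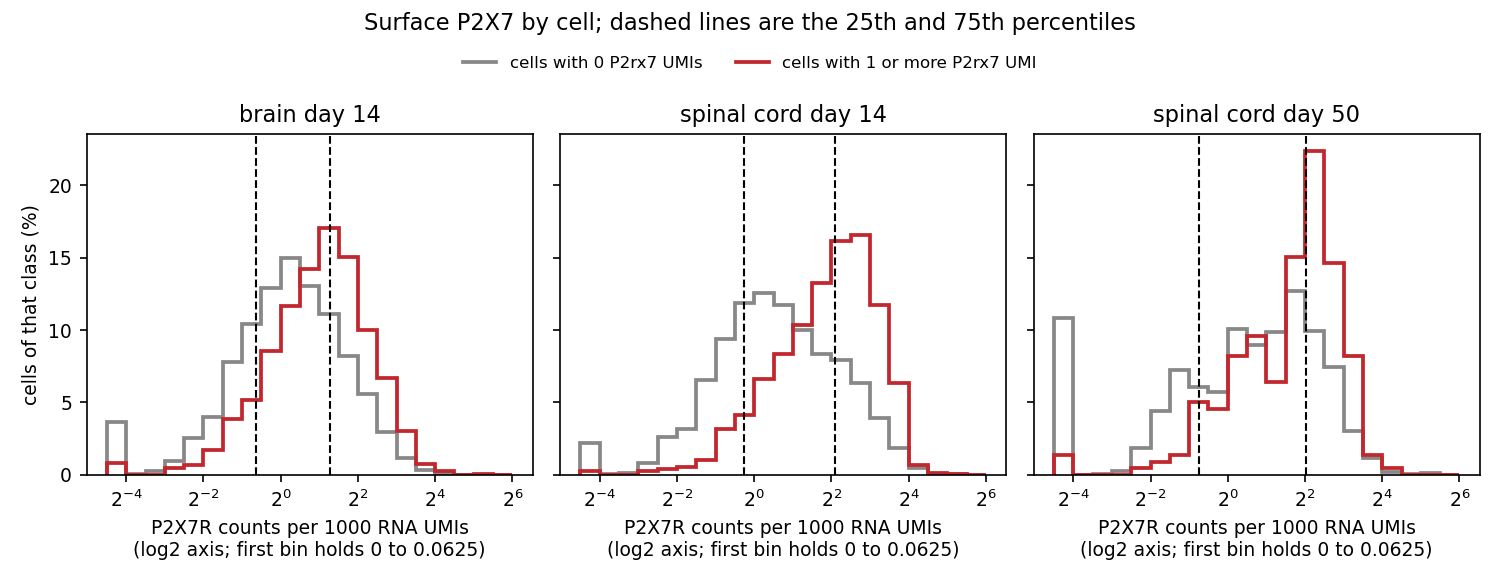
Share of cells (vertical axis, percent of the class) by P2X7R counts per 1000 RNA UMIs (log2 axis), for cells with 0 P2rx7 UMIs (grey) and with 1 or more (red), in the 3 libraries. Dashed lines are the 25th and 75th percentiles; cells with a P2rx7 UMI lie to the right of those without in each panel.

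The groups also differed in RNA yield, which is the divisor of the rule, though not in 1 direction. The median high cell held 3442 RNA UMIs against 4567 in the low group in day 14 brain, 4951 against 5027.5 in day 14 cord, and 3620 against 3106.5 in day 50 cord. Mitochondrial transcripts took a median of 3.15% against 2.81%, 2.77% against 2.69%, and 2.21% against 2.06% of UMIs in these libraries. Ribosomal protein transcripts took 32.1% against 30.9%, 29.2% against 28.1%, and 34.6% against 34.9%. Cells with at least 2 UMIs of cycling genes made up 6.40% against 12.8%, 8.93% against 9.58%, and 0.494% against 2.71%. The part of these values in the differences below was looked at by matching depth, thinning and leaving out cycling cells.

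The other stained proteins mark resident cells too: CD69 opposes exit from tissue, and CXCR6 is a chemokine receptor of cells that stay. CXCR6 counts per RNA UMI were higher in P2X7-high than in P2X7-low cells by 0.62 (log2) in day 14 brain, 0.42 in day 14 cord and 1.78 in day 50 cord. CD69 was higher by 1.0, 1.43 and 1.47. Of P2X7-high cells, 32.3%, 31.0% and 53.6% were in the top quartile group of CXCR6, against 20.9%, 19.6% and 10.8% of P2X7-low cells. For CD69 the shares were 36.4%, 41.6% and 42.7% against 16.5%, 13.1% and 12.3%. The 3 antibodies share droplet, staining and divisor and no isotype control was read, so these values are a description. When cells were matched on their other antibody counts, a setting added after seeing the data, the difference averaged 0.04 for CXCR6 and 0.24 for CD69. By library it ran from -0.15 to 0.20 for CXCR6 and from -0.26 to 0.51 for CD69. When P2X7R was taken as a share of all antibody counts it was -1.45 for each. Both settings form the groups with the CXCR6 and CD69 counts themselves. Much of their outcome was thus fixed in advance, and they cannot test whether the proteins occur together.

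The transcript followed the protein. This agreement was also a reason for taking the antibody by its identifier, so it is no separate check of which protein was stained. P2rx7 (chromosome 5, 122643927 to 122692336, GRCm38.p6) stood at 56.3 CPM in high and 10.8 CPM in low cells of day 14 brain, 107 and 11.6 CPM in day 14 cord, and 78.4 and 8.67 CPM in day 50 cord. High cells exceeded low cells in every library, by log2 2.38 (95% counting interval 2.11 to 2.65), 3.21 (2.96 to 3.46) and 3.18 (2.32 to 4.17). The fit over the 3 libraries gave log2 2.84 (SE 0.156, adjusted p = 0.000151, edgeR quasi-likelihood test with Benjamini-Hochberg adjustment over 10975 genes). After each cell was thinned to 2000 UMIs, P2rx7 was found in 10.6% of high and 1.55% of low cells in day 14 brain, 18.9% and 2.35% in day 14 cord, and 12.2% and 1.64% in day 50 cord. Unthinned, these shares were 17.8% and 4.69%, 39.7% and 5.95%, and 24.9% and 2.96%. Thinning left out 446 high and 192 low cells in day 14 brain, 53 and 24 in day 14 cord, and 35 and 40 in day 50 cord. No cell type known to lack P2rx7 was present to measure free RNA against, so the part of these shares that free RNA gives is unknown.

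Between the extremes P2rx7 climbed in steps in both day 14 libraries. Over the quartile groups of surface P2X7 it stood at 10.8, 19.4, 32.6 and 56.3 CPM in day 14 brain and at 11.6, 26.6, 58.6 and 107 CPM in day 14 cord. In the day 50 cord it stood at 8.67, 40.6, 37.3 and 78.4 CPM, with overlapping counting intervals in the middle quartile groups. Seen from the transcript, cells with no P2rx7 UMI had a median of 4 P2X7R counts, those with 1 had 11 and those with 2 or more had 17 in day 14 brain. It was 7, 21 and 37 in day 14 cord, and 6, 14 and 13 in day 50 cord, where only 29 cells had 2 or more. Cells with more P2rx7 UMIs were also deeper, with medians of 4757, 5472 and 6630 RNA UMIs in day 14 cord.

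**Figure D2:**
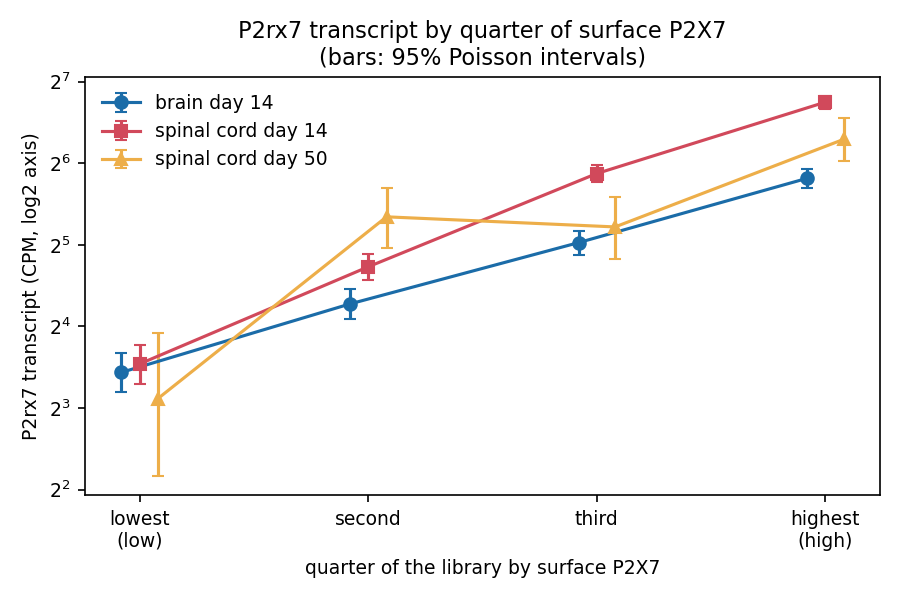
P2rx7 transcript (CPM, log2 axis) in the 4 quartile groups of each library by surface P2X7, with 95% Poisson intervals that cover counting error only. The lowest quartile group lies at 8.67 to 11.6 CPM in all 3 libraries and the highest at 56.3 to 107 CPM.

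Across all genes the protein split separated a small part of the transcriptome. Of 10975 genes tested, 128 were higher in P2X7-high cells, which is 1.17%, and 131 were lower, which is 1.19% (edgeR, adjusted p at most 0.05 with the library as a block; 1713 genes had an unadjusted p of 0.05 or less, and DESeq2 called 55 and 56). The median log2 fold change over all tested genes was 0.0050. The counts for gene lists below are to be set beside these counts over all genes. At an unadjusted p of 0.05 or less that is 1713 of 10975, so a few such members in a list are a description only. Of the 259 called genes, 2.36% of those tested, 243 went in the same direction in all 3 libraries, 89 were higher by 1.5-fold or more and 93 lower by that much. The call itself favours genes that go the same way in these libraries, so the 243 are a description and no separate support. The p-values measure how evenly a difference recurs over 3 single libraries of different tissue and day, which may share mice. An exact sign-flip test over 3 libraries could not go below p = 0.25 for any single gene, and leaving out the day 14 brain library left 10 higher and 13 lower genes, leaving out the day 14 spinal cord 16 and 22, and leaving out the day 50 spinal cord 572 and 591.

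Of the other genes of purinergic and NAD signalling, a few moved with the channel. The list held 22 genes, of which 17 were tested, 3 were called higher and 1 lower, with a median of 0.03. Beside P2rx7 the higher genes were the ecto-enzymes of NAD. Art2b, the ADP-ribosyltransferase that gates P2X7, stood at 16.4 CPM in high and 9.94 in low cells of day 14 brain, 11.5 and 7.34 in day 14 cord, and 35.3 and 26.7 in day 50 cord (log2 0.64, SE 0.122, adjusted p = 0.0329). Cd38, which degrades NAD, stood at 11.7 and 8.61 CPM, 27.9 and 11.6 CPM, and 20.2 and 13.0 CPM (log2 0.89, SE 0.169, adjusted p = 0.0324). Both were higher in all 3 libraries, and both lost the call when each cell was thinned to 2000 UMIs and in DESeq2. In day 50 cord the counting intervals of the log2 ratio included 0, at -0.23 to 1.04 for Art2b and -0.25 to 1.56 for Cd38.

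Downstream of the channel the pattern was different. Pycard, the inflammasome adaptor ASC, was lower in high cells of every library, at 302 against 420 CPM, 308 against 429 CPM and 157 against 214 CPM (log2 -0.47, SE 0.0649, adjusted p = 0.00993). Casp1, the inflammasome protease, differed by log2 -0.08 (adjusted p = 0.667) and Gsdmd, the pore former it cuts, by 0.16 (adjusted p = 0.456). Nlrp3, the sensor, had at most 4 UMIs in any group and was not tested.

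The ATP and adenosine handling enzymes and receptors did not pass the test. Panx1, a channel that releases ATP, had a log2 fold change of -0.24, Entpd1 (CD39), which breaks ATP down, -0.07, and Nt5e (CD73), which makes adenosine, 0.50 with an adjusted p of 0.0973. Nt5e stood higher in high cells of both day 14 libraries, at 24.2 against 16.2 CPM and 37.3 against 23.6 CPM, and lower at day 50, at 32.0 against 38.3 CPM. The adenosine receptor Adora2a (0.03), the adenosine deaminase Ada (0.41) and the ecto-peptidase gene Dpp4 (CD26, -0.08) did not pass either. P2rx4, the channel most related to P2X7, stood at 0.21, the receptor genes P2ry10 at 0.24 and P2ry14 at -0.01, and the sheddases Adam10 and Adam17 at -0.12 each. P2rx1, P2rx5 and Adora2b had at most 2 UMIs in any group, and Art2a-ps was not found under that name in the files.

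Most of the cytotoxic genes tested were lower in P2X7-high cells. Of 13 tested, 8 were lower and 0 higher, with a median of -1.03 (at unadjusted p of 0.05 or less 10 lower and 1 higher, in DESeq2 5 and 0). Gzmb stood at 17.5 CPM in high and 104 CPM in low cells of day 14 brain, 4.62 and 77.0 CPM in day 14 cord, and 7.18 and 109 CPM in day 50 cord (log2 -3.22, SE 0.238, adjusted p = 0.000455). After thinning, 1.73% of high and 8.92% of low cells held a Gzmb UMI in day 14 brain, 0.927% and 7.32% in day 14 cord, and 1.62% and 6.01% in day 50 cord; unthinned, the shares were 2.87% and 13.6%, 1.51% and 11.3%, and 1.98% and 7.14%. In the day 50 low group 2 cells gave 54.3% of the 151 Gzmb UMIs, so the level there rests on few cells more than the share does.

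Gzmk, the granzyme of memory-like cytotoxic cells, was spread over more cells. It stood at 23.0 CPM in high and 82.4 CPM in low cells of day 14 brain, 12.1 and 44.9 CPM in day 14 cord, and 67.9 and 377 CPM in day 50 cord (log2 -2.03, SE 0.112, adjusted p = 0.000151). At day 50 10.8% of high and 46.2% of low cells held a Gzmk UMI after thinning, and 15.8% and 49.3% before it. Eomes, the T-box factor of cytotoxic and memory cells, stood at 2.03 and 11.6 CPM, 0.637 and 6.64 CPM, and 12.4 and 87.5 CPM in the same order (log2 -2.80, SE 0.196, adjusted p = 0.000381). The low group was the higher one in all 3 libraries for both genes.

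The other cytotoxic genes called were Nkg7, a granule protein, at 466 against 806 CPM, 703 against 905 CPM and 713 against 1319 CPM (log2 -0.67, adjusted p = 0.00783), the pore former Prf1 (-2.34), and the NK-type receptor genes Klrd1 (-0.40), Klrk1 (-0.61) and Klrg1 (-1.07). Gzma, Gzmc, Fasl, Ctsw and Cst7 did not pass, and Ctsw and Cst7 had values above 0. Of the NK cell markers 3 of 6 had 0 UMIs in all 3 libraries, Ncr1 among them, and Eomes was the 1 called member. The summed markers gave 5.22 to 17.6 CPM in high and 13.1 to 88.2 CPM in low groups, with 87.5 of the 88.2 CPM at day 50 from Eomes.

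Some chemokines of effector cells were lower too. Ccl5, a chemokine kept ready in memory and cytotoxic cells, stood at 894 CPM in high and 1801 CPM in low cells of day 14 brain, 588 and 1354 CPM in day 14 cord, and 1406 and 7266 CPM in day 50 cord (log2 -1.51, SE 0.204, adjusted p = 0.00906). It was the 1 called gene of the 12 Th1 genes, whose median was -0.11 (0 higher; at unadjusted p of 0.05 or less 2 lower and 0 higher, in DESeq2 1 and 0). Ccl4 stood at 51.1 and 110 CPM, 46.9 and 122 CPM, and 36.6 and 200 CPM (log2 -1.46, adjusted p = 0.00407), and Ccl3 at 12.8 and 36.2 CPM, 12.7 and 50.9 CPM, and 1.31 and 52.8 CPM (log2 -1.93, adjusted p = 0.00497). Ccl1, the ligand of CCR8, stood at 137 and 548 CPM, 381 and 804 CPM, and 8.49 and 360 CPM (log2 -2.05, adjusted p = 0.0447). The Ccl1 call was lost at matched depth, without cycling cells and in DESeq2. Ccl3 was at 0.08 with the raw P2X7R count in place of the ratio and at 0.13 under the antibody share. These chemokines came in bursts from few cells: 2 low cells gave 90.8% of the Ccl1 UMIs, 61.6% of the Ccl3 UMIs and 31.8% of the Ccl4 UMIs at day 50. In day 14 brain 2 cells gave 56.1% of the Ccl3 UMIs in the high and 31.4% in the low group. In day 14 cord these shares were 41.9% and 57.4%. For Ccl4 they were 30.3% and 37.6% in brain and 39.6% and 36.0% in cord, and for Ccl1 21.3% and 14.5%, and 14.6% and 8.49%. Of the 13 effector cytokines and chemokines tested, 3 were lower and 1 higher, with a median of -0.49 (at unadjusted p of 0.05 or less 6 lower and 4 higher, in DESeq2 1 and 0). The higher one was Ltb (log2 0.30), a lymphotoxin subunit, which DESeq2 did not call.

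Among the genes called higher were members of the Th17 and residency lists, which share Tmem176b. Of 11 Th17 genes tested, 4 were higher and 0 lower, with a median of 0.51 (at unadjusted p of 0.05 or less 6 and 0, in DESeq2 2 and 0). By library the median was 0.49 in day 14 brain, 0.39 in day 14 cord and -1.11 in day 50 cord. Tmem176b, a membrane protein gene expressed in Th17 cells, stood at 194 CPM in high and 80.3 CPM in low cells of day 14 brain, 243 and 96.3 CPM in day 14 cord, and 164 and 88.2 CPM in day 50 cord (log2 1.22, SE 0.0853, adjusted p = 0.000381). Its neighbour Tmem176a stood at 194 and 78.9 CPM, 238 and 82.9 CPM, and 150 and 81.7 CPM (log2 1.3, SE 0.101, adjusted p = 0.000526). Tmem176b was at -0.09 when P2X7R was taken as a share of the antibody counts, and higher under every other setting. The high cells of that split also held less CXCR6 and CD69 protein, which are part of its divisor.

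Il22, a cytokine of Th17 cells that acts on barrier cells, stood at 167 and 44.9 CPM in day 14 brain, 44.9 and 29.8 CPM in day 14 cord, and 12.4 and 1.45 CPM in day 50 cord (log2 1.33, SE 0.246, adjusted p = 0.0299). Few cells carried it. After thinning, 5.91% of high and 2.22% of low cells held an Il22 UMI in day 14 brain, and 2.78% (2.14 to 3.54) and 2.18% (1.62 to 2.86) in day 14 cord, where the intervals overlap. Before thinning the shares were 7.75% and 3.61%, and 4.57% and 3.41%, and the high value at day 50 came from 19 UMIs of 2 cells. At day 14, 2 cells gave 36.8% of the Il22 UMIs in the high and 26.4% in the low group of brain. In day 14 cord it was 27.5% and 30.4%, so the levels rest on few cells there too. The Il22 call was lost without cycling cells and when cells were matched on other antibodies. Il1r1, the receptor through which interleukin-1 drives Th17 cells, stood at 36.3 and 25.9 CPM, 73.3 and 50.6 CPM, and 7.84 and 3.61 CPM (log2 0.51, adjusted p = 0.0224). It was at -0.25 under the antibody share.

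Il17a itself did not follow. It stood at 193 CPM in high and 206 CPM in low cells of day 14 brain, 98.3 and 96.2 CPM in day 14 cord, and 13.7 and 296 CPM in day 50 cord (log2 -0.71, adjusted p = 0.538). Of high and low cells at day 50, 0.541% and 3.83% held an Il17a UMI after thinning, and 1.73% and 4.19% before it. Ifng, the Th1 cytokine, stood at 355 and 472 CPM, 348 and 419 CPM, and 462 and 199 CPM (log2 0.09, adjusted p = 0.917), so that high cells were the lower group at day 14 and the higher one at day 50. Tbx21, the Th1 factor, had a log2 fold change of -0.09 (adjusted p = 0.835).

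Of 22 residency genes, all tested, 5 were higher and 0 lower, with a median of 0.35 (at unadjusted p of 0.05 or less 10 and 2, in DESeq2 3 and 0). Apart from the Tmem176 pair these were the glutaminyl cyclase gene Qpct, at 7.54 against 4.08 CPM, 11.6 against 3.28 CPM and 58.1 against 18.1 CPM (log2 1.45, SE 0.199, adjusted p = 0.00946), Ahr, a sensor of aromatic ligands needed by resident T cells at barriers, at 12.1 against 7.86 CPM, 14.1 against 7.34 CPM and 15.7 against 8.67 CPM (log2 0.78, SE 0.140, adjusted p = 0.0264), and Rgs2, a brake on G protein signalling (log2 0.51, adjusted p = 0.0499). The best-known anchors of resident cells did not pass the test. Cd69 transcript differed by log2 0.25 (adjusted p = 0.458), Cxcr6 by 0.22 (adjusted p = 0.367), Itgae (CD103) by 1.27 (adjusted p = 0.179) and Itga1 (CD49a) by 0.58 (adjusted p = 0.322). When P2X7R was taken as a share of the antibody counts, a split whose high cells held less CXCR6 and CD69 protein, the list's median was -0.14.

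For Cxcr6 and Cd69 the libraries differed. Cxcr6 stood at 359 CPM in high and 352 CPM in low cells of day 14 brain, 616 and 569 CPM in day 14 cord, and 358 and 238 CPM in day 50 cord. Cd69 stood at 679 and 673 CPM, 429 and 423 CPM, and 370 and 202 CPM. The counting interval of the log2 ratio in day 50 cord was 0.39 to 0.79 for Cxcr6 and 0.67 to 1.09 for Cd69. In the day 50 brain library, outside the comparison, it was 0.43 to 1.20 and 0.15 to 0.63. With 1 library a group the difference between libraries was not tested.

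For the exit programme the libraries differed as well. Klf2, the factor that keeps S1pr1 on, stood at 327 CPM in high and 280 CPM in low cells of day 14 brain, 82.9 and 166 CPM in day 14 cord, and 52.9 and 137 CPM in day 50 cord (log2 -0.56, adjusted p = 0.306). S1pr1, the receptor that leads T cells out of tissue, stood at 74.5 and 75.6 CPM, 58.4 and 108 CPM, and 51.6 and 121 CPM (log2 -0.59, adjusted p = 0.153). High cells held less of both in spinal cord on both days; a difference between brain and spinal cord was not tested. Of 10 tested genes of egress and lymph node homing 1 was higher and 1 lower, with a median of -0.14. The higher one was Il7r, the receptor of the survival cytokine interleukin-7, at 548 against 367 CPM, 550 against 443 CPM and 384 against 300 CPM (log2 0.42, adjusted p = 0.0231), and the lower one S1pr4, a relative of S1pr1 (log2 -0.41, adjusted p = 0.0401).

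**Figure D3:**
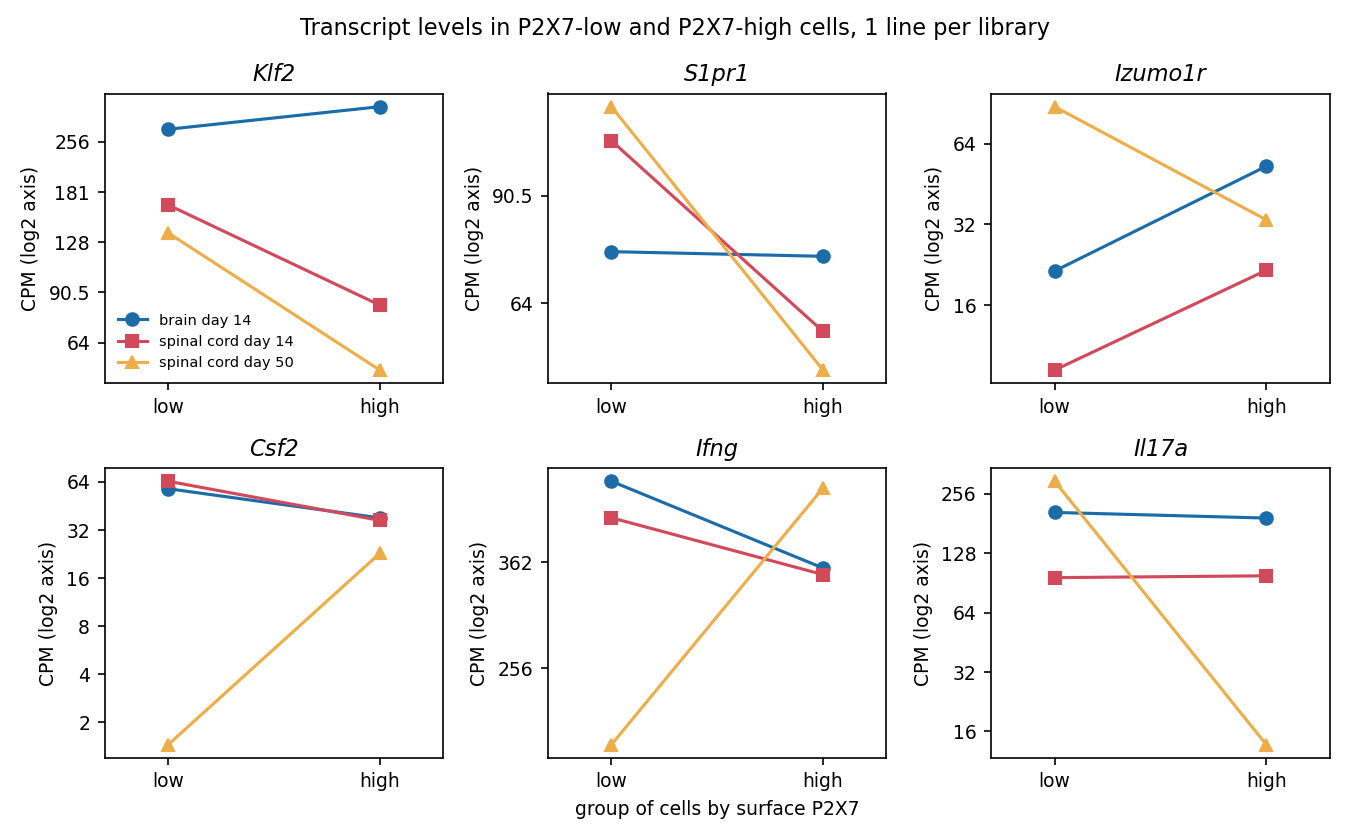
Transcript levels (CPM, log2 axes that differ between panels) in P2X7-low and P2X7-high cells for 6 genes, 1 line per library. Klf2 and S1pr1 fall from low to high in both spinal cord libraries, and Csf2, Ifng, Il17a and Izumo1r take another course in day 50 cord than in the day 14 libraries.

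Some of the genes that answer a stimulus within minutes were higher in P2X7-high cells. The list of immediate early and heat shock genes had 17 members, of which 5 were higher and 0 lower, with a median of 0.27 (at unadjusted p of 0.05 or less 9 and 1, in DESeq2 5 and 0). Jun, a subunit of AP-1, stood at 541 CPM in high and 332 CPM in low cells of day 14 brain, 526 and 327 CPM in day 14 cord, and 372 and 199 CPM in day 50 cord (log2 0.75, SE 0.0726, adjusted p = 0.00193). Fosb stood at 187 and 120 CPM, 163 and 95.1 CPM, and 68.6 and 48.4 CPM (log2 0.68, adjusted p = 0.00407). Fos (log2 0.59), Junb (0.44) and the phosphatase gene Dusp1 (0.49) were called as well. These genes also answer to tissue digestion, and mitochondrial shares were slightly higher in the high groups; the part of either was not tested.

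Genes that report T cell receptor signalling gave few calls. Of 17 genes of TCR activation 2 were lower and 0 higher, with a median of -0.07 (at unadjusted p of 0.05 or less 3 lower and 1 higher, in DESeq2 1 and 0). Over all tested genes 1713 of 10975 had such an unadjusted p, so that count says little about the list. Tnfrsf9 (4-1BB), a costimulatory receptor of freshly triggered cells, stood at 20.3 CPM in high and 44.1 CPM in low cells of day 14 brain, 33.8 and 74.8 CPM in day 14 cord, and 9.14 and 28.2 CPM in day 50 cord (log2 -1.17, SE 0.0896, adjusted p = 0.000526). Egr3 had a log2 fold change of -0.56 (adjusted p = 0.0405) but went the other way at day 50, at 8.49 against 6.5 CPM from 13 and 9 UMIs.

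Some proliferation genes were lower in the high group under the chosen divisor, but not under all. Of 26 tested, 7 were lower and 0 higher, with a median of -0.55 (at unadjusted p of 0.05 or less 21 lower and 0 higher, in DESeq2 3 and 0). Tyms, a DNA synthesis enzyme, stood at 30.3 CPM in high and 49.9 CPM in low cells of day 14 brain, 25.3 and 36.7 CPM in day 14 cord, and 11.1 and 32.5 CPM in day 50 cord (log2 -0.70, adjusted p = 0.0185). The helicase genes Mcm3 (-0.66), Mcm5 (-0.65) and Mcm6 (-0.38), Tk1 (-0.97), Tubb5 (-0.44) and Hmgb2 (-0.33) were the other ones. With the raw P2X7R count in place of the ratio the list's median was 0.70, with Tyms at 0.47, Mcm3 at 0.40 and Mcm5 at 0.44. In the raw-count split the median high cell held 5032 RNA UMIs against 3343 in the low group in day 14 brain. It was 5768 against 4504 in day 14 cord and 4206 against 2853 in day 50 cord. The cause of the change in these genes was not tested. At matched depth the median was -0.14 and without cycling cells -0.11.

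Outside these lists, the genes of largest fold among those at 50 CPM or more that moved alike in the 3 libraries ran from Il22 and the Tmem176 pair down to Gzmb. Ckb, brain-type creatine kinase, stood at 263 CPM in high and 169 CPM in low cells of day 14 brain, 406 and 209 CPM in day 14 cord, and 254 and 64.3 CPM in day 50 cord (log2 1.05, SE 0.186, adjusted p = 0.0257). Trat1, an adaptor that stabilises the T cell receptor complex, had a log2 fold change of 0.72 (adjusted p = 0.00497), the ubiquitin ligase gene Znrf1 0.71 (adjusted p = 0.00407), the receptor gene Igflr1 0.72 (adjusted p = 0.00946), the calcium-binding protein gene Tesc 0.62 (adjusted p = 0.0128) and Camk2n1, an inhibitor of the kinase CaMKII, 0.62 (adjusted p = 0.0231). Camk2n1 was at -0.35 under the antibody share.

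Of the lower genes, Rasgrp2, an activator of the GTPase Rap1 and so of integrins, stood at 46.5 CPM in high and 76.2 CPM in low cells of day 14 brain, 31.4 and 74.5 CPM in day 14 cord, and 22.2 and 58.5 CPM in day 50 cord (log2 -1.02, SE 0.122, adjusted p = 0.00497). Serpinb6b, a serine protease inhibitor gene, stood at 36.6 and 85.0 CPM, 32.6 and 97.5 CPM, and 20.9 and 34.0 CPM (log2 -1.35, SE 0.120, adjusted p = 0.00116). Rgs16 (-0.71), a regulator of chemokine receptor signalling, and Flna (-0.57), an actin crosslinker, followed. Ifitm1, an interferon-inducible membrane protein gene (-0.81, adjusted p = 0.0492), had 0 UMIs in the day 50 high group against 12 in the low group, all from 1 cell (0.246% of that group), and lost the call at matched depth. Its direction at day 50 thus rests on that cell.

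**Figure D4:**
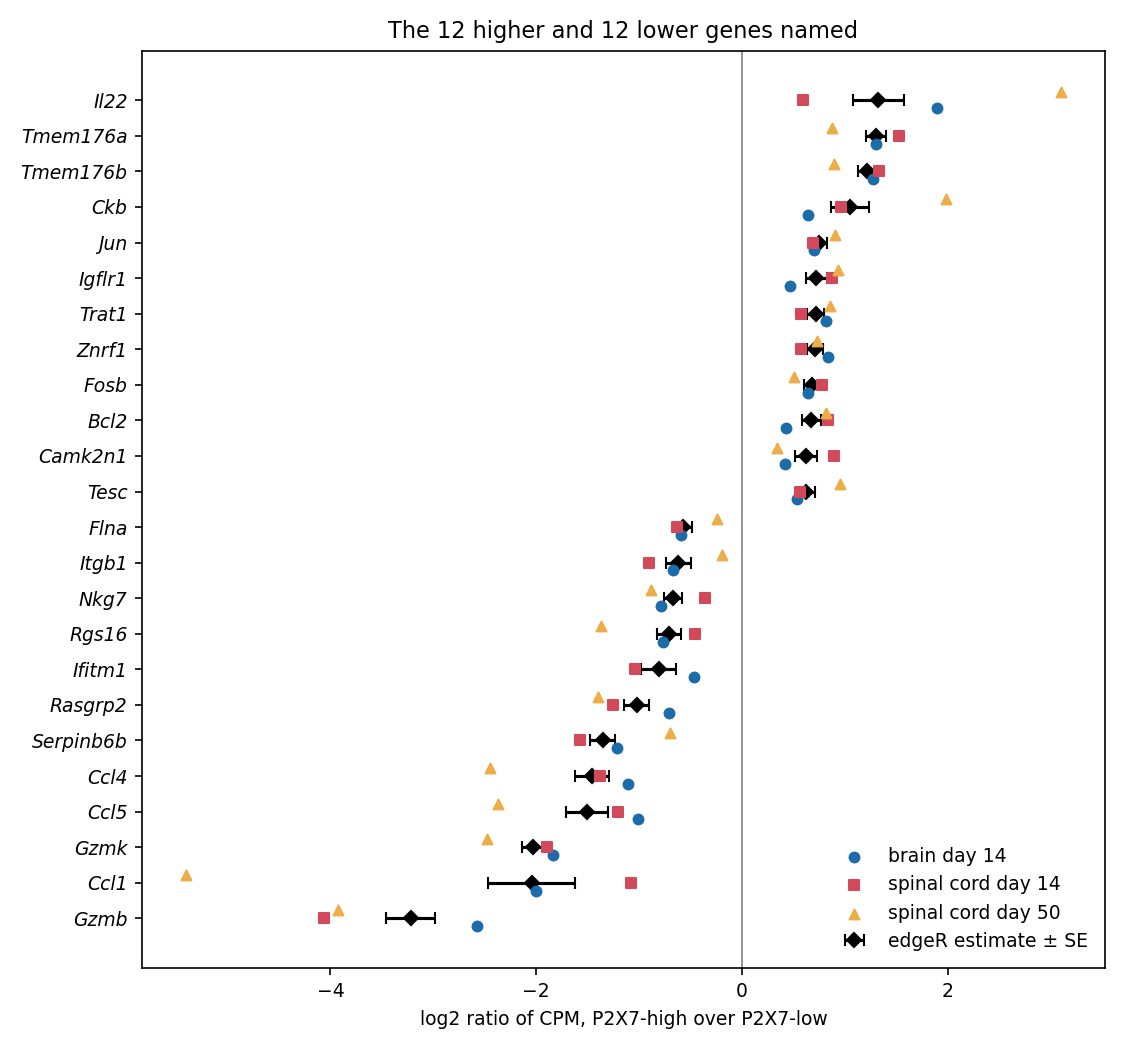
Log2 ratio of CPM in P2X7-high over P2X7-low cells for 24 genes, with 1 symbol per library and the edgeR estimate with its standard error as a diamond. Symbols of the 3 libraries lie on the same side of 0 for each gene, which was a condition for being shown. Ifitm1 has no symbol for day 50 cord, where the high group had 0 UMIs.

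Cell survival genes were divided. Of 16, 2 were higher and 1 lower, with a median of -0.04. Bcl2, which holds back cell death, stood at 119 CPM in high and 88.1 CPM in low cells of day 14 brain, 172 and 96.6 CPM in day 14 cord, and 166 and 94.0 CPM in day 50 cord (log2 0.67, SE 0.0947, adjusted p = 0.0102). Il7r was the other higher gene.

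Adhesion and differentiation genes gave few calls. Of 16 chemokine receptors and integrins 0 were higher and 2 lower, with a median of 0.07 (at unadjusted p of 0.05 or less 3 and 3, in DESeq2 0 and 2). They were Itgb1, the integrin beta 1 chain of VLA-4, at 209 against 333 CPM, 338 against 634 CPM and 304 against 347 CPM (log2 -0.62, adjusted p = 0.0380), and Ccr2, the receptor of inflammatory recruitment, at 127 against 186 CPM, 181 against 259 CPM and 108 against 142 CPM (log2 -0.51, adjusted p = 0.0123). Of 14 tested genes of TGF-beta and retinoic acid signalling 1 was higher, the receptor Tgfbr1 (log2 0.66, adjusted p = 0.0380), with a median of 0.03 (at unadjusted p of 0.05 or less 2 higher and 4 lower, in DESeq2 0 and 0). Of 9 Tfh genes 1 was higher, the factor Tox2 (log2 1.19, adjusted p = 0.0499), with a median of 0.20 (at unadjusted p of 0.05 or less 2 higher and 1 lower, in DESeq2 0 and 0). Tox2 stood at 25.4 against 10.8 CPM and 19.8 against 7.34 CPM at day 14 but at 2 against 13 UMIs at day 50, and the call was lost at matched depth. Of 10 inhibitory receptors, 22 interferon response genes and 16 glycolysis genes 0 were called in either direction, with medians of -0.22, 0.19 and -0.11. At unadjusted p of 0.05 or less these lists had 1, 7 and 1 higher and 1, 0 and 2 lower genes, and DESeq2 called 0 in each. Over all tested genes 1713 of 10975 had such an unadjusted p.

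**Figure D5:**
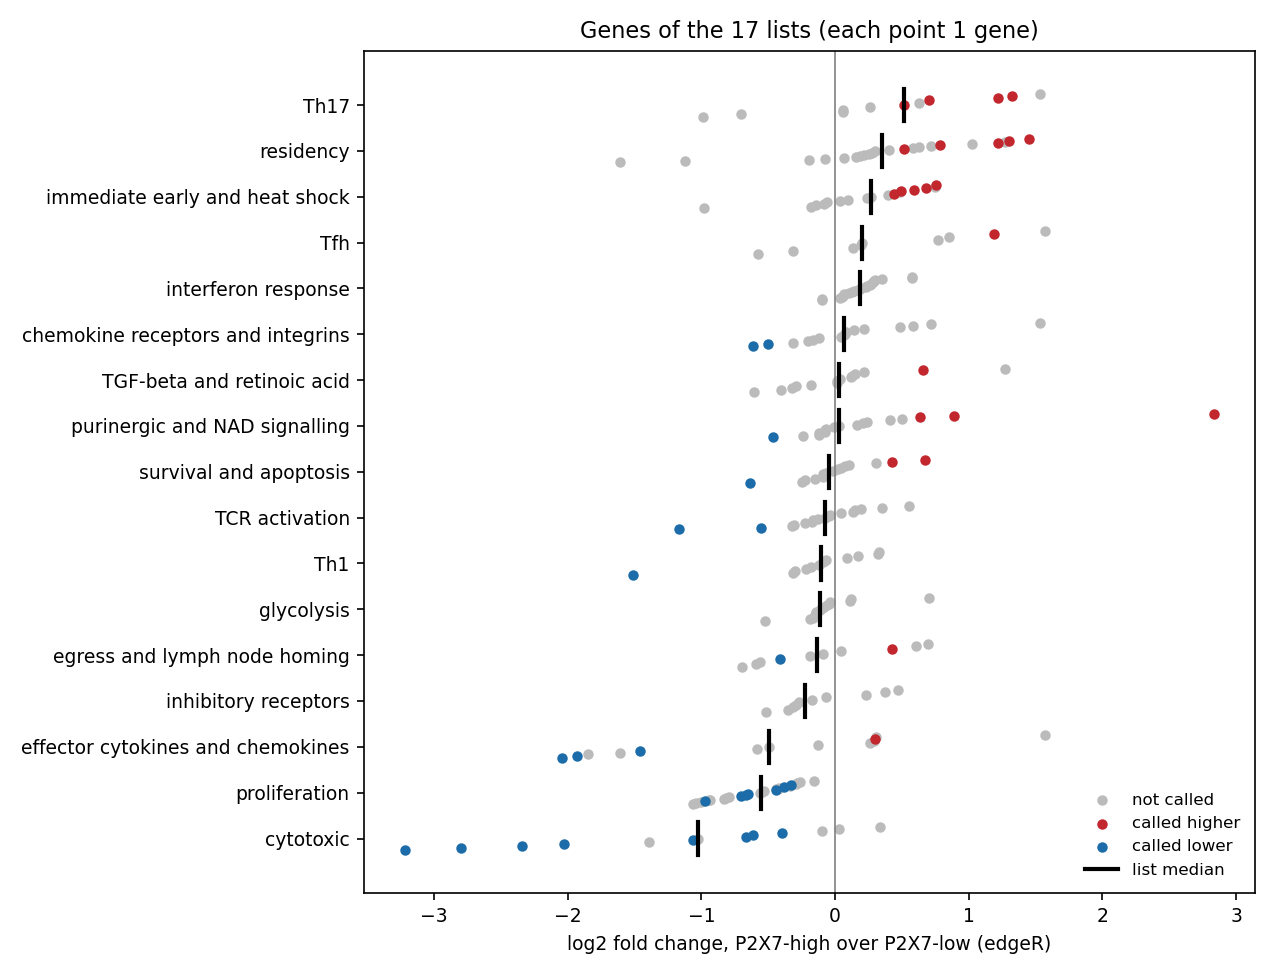
Log2 fold change (edgeR, P2X7-high over P2X7-low) of every tested gene of 17 lists, 1 point per gene, red where called higher and blue where called lower, with a black bar at each list's median. The cytotoxic list has the lowest median, -1.03, and the Th17 list the highest, 0.51.

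Some of the named genes changed in steps along the protein scale, in the middle quartile groups as well as at the ends. Among the 62 genes named by rule, 6 rose from quartile group to quartile group in all 3 libraries (Ckb, Dusp1, Fos, Jun, Tesc and Znrf1) and 7 fell (Ccl5, Eomes, Gzmk, Pycard, Rasgrp2, S1pr4 and Tnfrsf9). Gzmk went from 82.4 through 67.4 and 44.6 to 23.0 CPM in day 14 brain, from 44.9 through 30.1 and 19.4 to 12.1 CPM in day 14 cord, and from 377 through 175 and 82.6 to 67.9 CPM in day 50 cord. Ckb went from 169 through 174 and 205 to 263 CPM, from 209 through 238 and 304 to 406 CPM, and from 64.3 through 120 and 194 to 254 CPM. In day 50 cord the counting interval of the log2 ratio between the end groups included 0 for Fos (-0.05 to 0.43) and S1pr4 (-0.74 to 0.27). The end quartile groups are the groups compared above, and most of the 62 genes were named for their difference between them. The share over all tested genes was not taken, so this order is a description.

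Transcripts of other cell types were low or called in few members. The 4 B cell markers summed to at most 1.19 CPM in any group, the neutrophil markers to at most 0.398 CPM and the erythroid markers to at most 1.31 CPM, and none of them was tested. Of 16 microglial and myeloid markers 11 were tested, Apoe was higher (log2 1.07) and Ccr2 lower, and the list's median was 0.59. At unadjusted p of 0.05 or less 4 were higher and 3 lower, and DESeq2 called 0 and 1. Their sum was 269 CPM in high and 519 CPM in low cells of day 14 brain, 332 and 546 CPM in day 14 cord, and 315 and 264 CPM in day 50 cord. Ly6c2 and Ccr2, which activated T cells express as well, made up most of it, and the microglial genes P2ry12 and Tmem119 stayed at or below 0.297 CPM. Other members of the list lay above 0 without a call: C1qa (log2 0.94), C1qb (0.52), C1qc (0.83) and Aif1 (0.69), each at 3.82 CPM or less in every group. Of the gamma-delta T cell markers Tcrg-C1 was higher (log2 1.92) and 3 were tested, with a median of -0.09 and sums of 5.0 to 22.2 CPM. Regulatory T cell, CD8 T cell, dendritic cell, oligodendrocyte and neural, endothelial and T cell markers had 0 called of 4, 1, 4, 3, 1 and 6 tested, with medians of -0.03, -0.02, 0.25, 0.18, 0.09 and -0.05. At unadjusted p of 0.05 or less 1 T cell marker was higher and no other of these passed, and DESeq2 called 0. The part of other cells in the differences was not tested beyond these values.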

How the data were processed

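RNA and 3 surface proteins were measured in conventional CD4+ T cells, with 1 library per tissue and day. The authors deposited unnormalized UMI counts, per the file headers, in which genes and 3 antibodies share 1 matrix per library. The submitters' processing notes name Cell Ranger 6.1.1 and the mm10 build, and only barcodes already called as cells are present. Of the antibody features, identifiers and names disagree for 2: the identifiers P2X7R and CXCR6 stand beside other names. The identifiers were taken as right, since they match the proteins in the labels and since P2X7R counts follow the P2rx7 transcript.

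A barcode was kept if it had 500 or more genes and no more than 10% mitochondrial UMIs, which left 21551 of 22247. Doublets were not removed. The groups held 10340077 and 13480060 RNA UMIs (high and low) in day 14 brain, 12561415 and 12800351 in day 14 cord, and 1531461 and 1383720 in day 50 cord. Within a library the counts of each group were added up and scaled to CPM. The 6 sums were fitted with edgeR 4.0.16 (filterByExpr, TMM, quasi-likelihood test, library as a block, Benjamini-Hochberg adjustment, threshold 0.05) in R 4.3.3; DESeq2 1.42.0 was an alternative. The block pairs the high and low sums of a library because both come from the same cells' library. The fit was tested on simulated data in which each gene had the same fold in every library. That test does not cover differences that vary between libraries. Ratio intervals are exact conditional binomial, shares exact Clopper-Pearson and levels exact Poisson, all at 95%, and cover counting error only. A gene at 0 UMIs has a floor of 3 counts per group, which is 0.223 to 2.17 CPM. Counts of 1 gene are not scaled by its length, so levels are compared within a gene only.

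Members, the 17 gene lists, the 12 marker lists and the tests were chosen with earlier results of these data known. The genes named are every tested purinergic and NAD gene, the 12 higher and 12 lower called genes of largest fold change among those alike in all 3 libraries at a mean of 50 CPM or more, and up to 4 called members of every other list at 10 CPM or more. Other genes named (Klf2, S1pr1, Il17a, Ifng, Csf2, Cxcr6, Cd69, list members without a call, further called list members and the genes of the closing section) were chosen after their values were seen. Alternatives changed the divisor, the depth, the percentiles, the cells, the scaling, the filter, the tool, the block and the libraries. The day 50 brain library was kept out of the comparison by the rule. Of the called list members, 2 are not reported here by name, though they stay in the fit and the counts.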

Additional observations from a re-analysis of the deposited data

Results flagged for a closer look

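Of 213 list genes looked at, a few had opposite directions in libraries that differ in tissue or day, with counting intervals on both sides of 0; none of these differences was tested, since each library stands alone. Spp1 (osteopontin) had a log2 ratio of high over low cells of -1.18 in day 14 brain, 2.57 in day 14 cord and -1.89 in day 50 cord. Csf2, the encephalitogenic cytokine GM-CSF, had -0.815 in day 14 cord and 3.98 at day 50, where the low group held 2 UMIs. Izumo1r (folate receptor 4) had 1.24 in day 14 cord and -1.4 at day 50. Tox2, a Tfh factor, had 1.43 and -2.85, with 2 UMIs in the day 50 high group.

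In the day 50 brain library, which the comparison does not use, 87 high and 131 low cells gave 16 and 3 P2rx7 UMIs, a log2 ratio of 2.67. There the low group is every cell with 0 P2X7R counts.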

How the results depend on the processing

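The comparison gave 128 higher and 131 lower genes, and P2rx7 was called in every alternative run. All 259 called genes kept their direction at matched depth, with 143 higher and 119 lower called, and under the match on other antibodies, which was added after seeing the data, with 224 and 163. Dividing the cells by the raw P2X7R count gave 187 and 131 calls, of which 72 and 61 were shared, and 228 of the 259 kept their direction. The share of antibody counts gave 169 and 167, of which 36 and 42 were shared, and 209 of the 257 tested kept their direction. A split at the median gave 93 and 85, the top and bottom 10% of cells 186 and 209, thinning to 2000 UMIs 63 and 67, leaving out cycling cells 88 and 77, no filter on low counts 375 and 446, and DESeq2 55 and 56, with 852 adjusted p not given. Without the replicate block, that is without pairing the sums of a library, 1 gene was higher, P2rx7, and 0 lower, with 292 at an unadjusted p of 0.05 or less. Leaving out 1 library gave 10 to 572 higher and 13 to 591 lower genes. CXCR6 counts differed by -1.45 (log2) under the antibody share and 0.0372 under matched other antibodies, and CD69 counts by -1.45 and 0.24. Both settings form the groups with these counts, so the values follow largely from the choice of cells. CD69 counts differed by 0.82 for the median split and 1.57 for the outer 10% groups.

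Over the named genes and all alternatives, 855 values kept their direction and side of the threshold, 259 lost a call, 6 gained one and 34 changed sign. P2rx7, Ccr2, Eomes, Gzmb, Nkg7, Serpinb6b, Tesc, Tnfrsf9 and Trat1 kept the call in every alternative that had the block and left out no library, and of these P2rx7, Eomes, Gzmb and Tnfrsf9 also without any 1 library. P2ry14 was too low to be tested in some alternatives. The antibody share gave Ada -0.0909, Adora2a -0.0482, Camk2n1 -0.35, Ccl3 0.13, Dpp4 0.28, Il1r1 -0.25, Mcm3 0.11, Tmem176b -0.0937 and Tyms 0.19. The raw count gave Adora2a -0.00592, Ccl3 0.0813, Gsdmd -0.0161, Il7r -0.0256, Mcm3 0.40, Mcm5 0.44, P2rx4 -0.0214, P2ry10 -0.14, Tubb5 0.0922 and Tyms 0.47. Adora2a was -0.00677 at matched depth, -0.0191 for the median split, -0.16 after thinning, -0.00685 without the 5% deepest barcodes, -0.00639 with the day 50 brain added, and -0.00986 to 0.20 without 1 library. P2ry14 was 0.0788 at matched depth, 0.0454 for the median split, 0.0401 without cycling cells, 0.0657 at 5% mitochondrial UMIs, 0.00645 without the day 50 cord and 0.31 under matched other antibodies. Egr3 was 0.0106 for the outer 10% groups, and Entpd1 -0.47 to 0.0346 without 1 library. The cause of these changes was not tested. The day 50 cord groups held the fewest UMIs, and there 3 counts are 1.96 to 2.17 CPM.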

Other observations

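Among called genes outside the lists, some of the largest differences lay in genes with no known tie to P2X7; these were chosen after their values were seen. Igkc, the immunoglobulin kappa constant chain, stood at 5.42 CPM in high and 30.6 CPM in low cells of day 14 brain, 1.43 and 15.5 CPM in day 14 cord, and 4.57 and 134 CPM in day 50 cord (log2 -3.16, edgeR adjusted p = 0.000791). The low group was higher in all 3 libraries, while the 4 B cell markers summed to at most 1.19 CPM in any group. Stmn2, a microtubule regulator known from neurons, stood at 3.19 and 19.4 CPM, 3.11 and 32.0 CPM, and 0 UMIs against 15 (log2 -3.09, adjusted p = 0.000381), and the transcript 1500009L16Rik at 7.83 and 39.5 CPM, 3.66 and 42.3 CPM, and 3.92 and 29.6 CPM (log2 -2.88, adjusted p = 0.000393). Ggt1, a glutathione-degrading ecto-enzyme, had a log2 fold change of -1.99 and Klrc1 (NKG2A), an NK-type inhibitory receptor, -0.82. Lgals3 (galectin 3) stood at 138 and 401 CPM and 166 and 402 CPM at day 14 but at 86.8 and 83.1 CPM at day 50 (log2 -1.13).

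On the higher side, Gpr34, a lysophosphatidylserine receptor, stood at 13.2 and 4.38 CPM, 22.5 and 7.66 CPM, and 24.2 and 2.17 CPM in the same order (log2 1.67, edgeR adjusted p = 0.00407). Ecm1, a gene of the extracellular matrix protein 1, stood at 21.5 and 10.3 CPM, 41.6 and 20.7 CPM, and 12.4 and 5.78 CPM (log2 1.02, adjusted p = 0.00193). Il17re, a chain of the interleukin-17C receptor, had a log2 fold change of 0.65, Ramp1, a partner of the receptor for the neuropeptide CGRP, 0.55, and Irs2, an adaptor of insulin receptor signalling, 1.24. Tff1 (trefoil factor 1) stood at 81.5 and 43.0 CPM and 87.3 and 13.1 CPM at day 14, with 6 and 2 UMIs at day 50 (log2 1.70).

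In the day 50 brain library, split by the same rule, 60 of the 82 higher and 35 of the 59 lower genes that had at least 10 UMIs there lay on the same side as in the 3 libraries. The same share over all tested genes was not taken, so these counts are a description and no test of recurrence. Gzmb, with 5 UMIs in high and 4 in low cells there, was below that count.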
